A study of Mus musculus with 7 samples.

Results

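The hormone exocytosis machinery was followed here as 57 genes of the 21938 protein-coding genes of the GENCODE mouse annotation on mm10. They encode the proteins that bring a hormone granule to the plasma membrane, prime it and fuse it with the membrane when calcium enters. The members were listed by name for their function, not by a threshold on the peaks, and all 57 were found once in the annotation. Each was scored by the ATAC-Seq peaks within 1 kb of its transcription start site (TSS) and by the peaks over its gene body plus 20 kb on either side.

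In ATAC-Seq, Tn5 transposase inserts adapters where chromatin is open, and a peak is a stretch with more insertions than its surroundings. The series holds 7 peak lists of FACS-sorted islet cells from healthy mice: 2 replicates of alpha cells, 3 of beta cells and 2 of delta cells. All mice carried mIns1-H2b-mCherry, which marks beta cells, together with Rosa-LSL-YFP and either Gcg-Cre, which switches YFP on in alpha cells, or Sst-Cre, which does so in delta cells. Mice were pooled by sex, both sexes were present in every cell type, and cells with both colours were left out of the sort. The age of the mice was not given in the sources used here.

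The lists held 75860 to 158066 distinct peaks, except that of beta 1, which held 518503. Strict peaks, meaning those whose -log10 q was 2 or more, numbered 25903 to 52057, and beta 1 had the fewest. The paper reports fewer unique mapped reads for each beta library it kept than for either alpha library. By the same measure delta 1 lay above and delta 2 below both alpha libraries. The part of depth in low or missing beta peaks was not tested. The peak names inside all 3 lists labelled beta carry the name of another cell type, alpha in beta 1 and delta in beta 2 and beta 3, so every beta value rests on the labels. Those names also carry a lane code: both alpha libraries and beta 1 came from lane 6 and the other 4 from lane 7, so that alpha and delta cells cannot be told apart from the lanes. Of 6 alpha marker genes, 6 had a TSS peak in both alpha libraries, 2 to 5 in the beta libraries and 5 or 6 in the delta libraries. The glucagon gene Gcg stood at a TSS level of 64.7 and 54.3 in alpha 1 and alpha 2, 10.8 in delta 2 and 0 elsewhere, where the level is the percentile defined below. Of 5 delta markers, 5 had a TSS peak in both delta libraries, 4 in both alpha libraries, 4 in beta 1 and 0 in beta 2 and beta 3. The somatostatin gene Sst went against the labels, at a TSS level of 48.2 in beta 1, 2.4 and 1.9 in the delta libraries without a strict peak, and 0 elsewhere. The 6 beta markers separated the libraries less: 4 or 5 had a TSS peak in each library except beta 2, with 3, Slc2a2 had none in any library, and Ins2 had one in beta 3 alone. Peaks at Ins1 may include copies of the transgene promoter. Levels summed over the lists ran from 0 to 11.9 for the 4 acinar markers found, 0 to 22.6 for the 3 endothelial markers and 0 to 30.6 for the 3 immune markers, where the Cdh5, Ptprc, Cpa1 and Krt19 starts had no peak in any list. The 3 duct markers summed to 43.9 and 50.2 in the delta libraries, with 2 strict starts each, against 8.1 and 5.3 in alpha and 37, 10.6 and 4.4 in beta libraries, with no strict start. The part of these other cell types in the values below, the delta-high ones included, was not tested.

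Exocytosis in islet cells runs on the proteins that neurons use to release transmitter. Snap25 and syntaxins on the plasma membrane zip together with a VAMP on the granule, Munc18-type syntaxin-binding proteins guide this assembly, and synaptotagmins and complexins couple it to calcium. Munc13 and CAPS proteins prime granules, RIM proteins hold them near calcium channels, and Rab3 and Rab27 GTPases with their effectors tether them. The same core serves glucagon, insulin and somatostatin release, whereas single members are known to differ between islet cell types.

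TSS peaks were common among the members. Of the 57, 33 (57.9%) had a TSS peak in all 7 libraries, against 41.5% of all protein-coding genes, and 3 (5.26%) had none in any library, against 17.3%. With strict peaks, 26 members (45.6%) had one in all 7 libraries, against 31.1% of all genes. The share of members with a strict TSS peak was 73.7% and 77.2% in the alpha libraries, 49.1%, 52.6% and 64.9% in the beta libraries, and 70.2% and 71.9% in the delta libraries. Over all protein-coding genes the corresponding shares were 53.7% and 56.0%, 38%, 39.3% and 47.7%, and 53.3% and 50.8%, so the members and the other genes fell together in the lists labelled beta, which also had the fewest strict peaks.

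**Figure D1:**
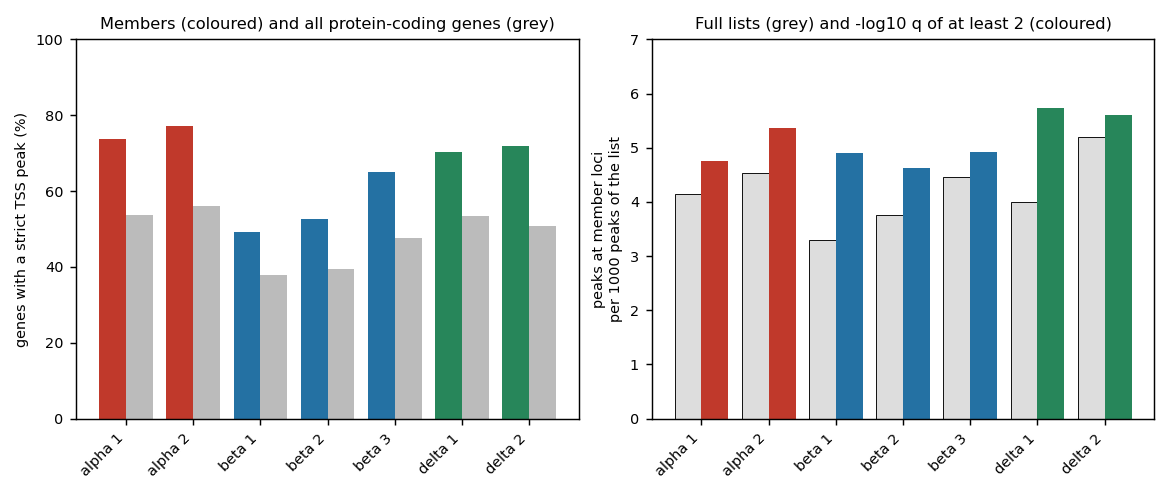
Left, percentage of the 57 members (coloured by cell type) and of all protein-coding genes (grey) with a strict TSS peak in each library, on a linear axis from 0. Right, peaks at the member loci per 1000 peaks of the same list, with the full list (grey) and strict peaks (coloured); members exceed all genes in every library, and strict values run from 4.62 in beta 2 to 5.74 in delta 1.

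To compare libraries of unequal list length, the strongest TSS peak of a gene was expressed as its percentile, by -log10 p, among all protein-coding genes with a TSS peak in that library, with 0 for no peak. This TSS level ranks a start within its library and is not a count of reads. Levels of beta 1 are on another scale: its lowest strict TSS peak stood at 45.6, against 9.69 to 19.5 in the other libraries. A peak of lower -log10 p in beta 1 can therefore stand at a higher level than one elsewhere. The median level of the members was 44.2 and 37.1 in the alpha libraries, 44.8, 26.7 and 47.9 in the beta libraries, and 45.9 and 37.4 in the delta libraries, against 0 to 28.4 over all protein-coding genes. An exact permutation test over all 210 ways to divide the libraries into 2, 3 and 2 asked whether the level differed between cell types, on the between-group sum of squares and thus without a direction. It called 6 of the 54 members with a TSS peak at an unadjusted p of 0.05 or less: Stx1a, Syt1, Syt4, Syt17, Cadps and Cadps2. Among all 18145 genes tested 6.01% were called, and after Benjamini-Hochberg adjustment over these genes no member and no other gene passed, with a lowest adjusted p of 0.735 in this exact permutation test. The smallest p the design allows is 0.00952. The differences below are descriptions, some between groups that overlap or with an unadjusted p above 0.05, and none passed correction. With limma, 10 members and 9.15% of the genes tested had an unadjusted p of 0.05 or less, and 0 members and 2 other genes had an adjusted one. With strict peaks alone the exact permutation test called 8 members and 12.4% of the genes tested at an unadjusted p of 0.05 or less. There Stx1a, Syt17 and Cadps were called again, the calls of Syt1, Syt4 and Cadps2 ended, and Stx3, Stxbp5, Syt7, Rab3c and Rph3al were called instead.

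**Figure D2:**
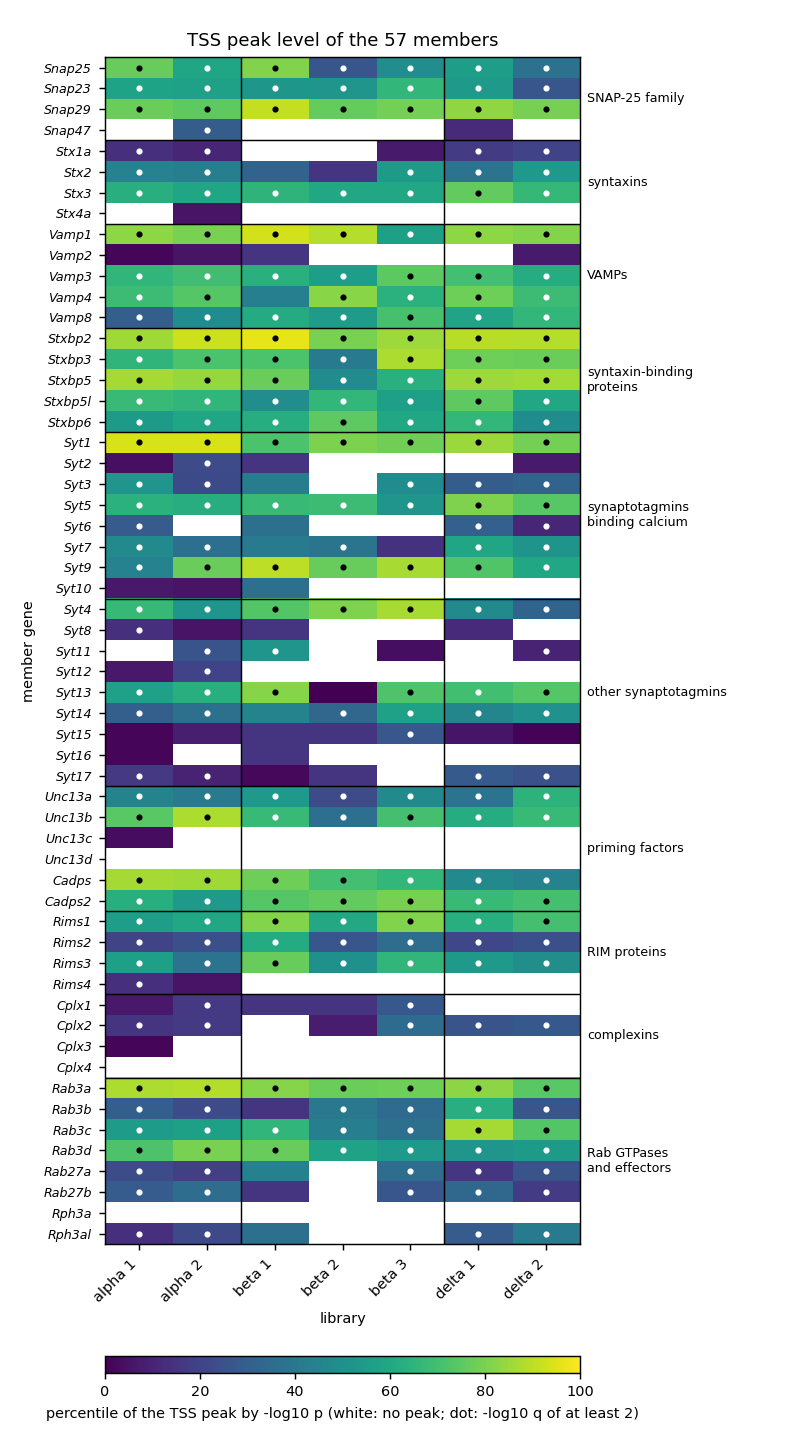
TSS level (percentile by -log10 p, colour) of the 57 members, in rows grouped by role, in each of the 7 libraries, in columns; white is no TSS peak and a dot marks a strict peak. All 5 syntaxin-binding proteins are open in every library, whereas the complexins and several synaptotagmins are weak or white.

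The t-SNAREs of the Snap25 family form the membrane side of the fusion complex. Snap25 itself, cleaved by botulinum toxin and required for fast secretion, had a strict TSS peak in all 7 libraries, at a level of 76.9 and 59.3 in alpha, 81.0, 26.8 and 49.1 in beta, and 56.0 and 37.4 in delta libraries. The beta libraries spanned both other groups, and the level did not pass the exact permutation test (p = 0.629). In 5 of the libraries the strongest peak in the window had its summit about 1 kb upstream of the annotated start, and in delta 1 and beta 2 it lay nearer to the start. Snap23 and Snap29, the broadly used relatives, also had strict TSS peaks in all 7, and the Snap29 window also holds the start of a neighbouring gene. Snap47 had a TSS peak in alpha 2 and delta 1 only, but 1.18 kb farther in, where its protein-coding transcripts start, both alpha and both delta libraries had a peak and no beta library did. That window gave a -log10 p of 2.31 and 9.94 in alpha 1 and alpha 2 and 9.34 and 5.76 in delta 1 and delta 2.

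Among the syntaxins, Stx1a, the plasma membrane partner of Snap25, had a weak start that differed between cell types. Its level was 13.7 and 10.8 in the alpha libraries, 0, 0 and 7.3 in the beta libraries, and 17.9 and 20 in the delta libraries. The 3 cell types did not overlap, with delta highest and beta lowest (exact permutation test, p = 0.0286, adjusted p = 0.747). Non-overlap of all 3 cell types was found for 4 members, Stx1a, Syt4, Cadps and Cadps2, or 7.02% of the 57, and for 4.09% of the genes tested. Within lane 6 the alpha libraries averaged 12.3 against 0 in beta 1, and within lane 7 the delta libraries averaged 18.9 against 3.64 in beta 2 and beta 3. The Stx1a peak was strict in all 4 alpha and delta libraries and in no beta library, and its promoter is shown for that reason. The 250 bases upstream of its RefSeq start (GRCm38.p6, chr5:135023232-135023481, plus strand) are given with GGGCGG, the GC box, in capitals on either strand, as is CCAAT in the promoters that follow.

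Stx1a: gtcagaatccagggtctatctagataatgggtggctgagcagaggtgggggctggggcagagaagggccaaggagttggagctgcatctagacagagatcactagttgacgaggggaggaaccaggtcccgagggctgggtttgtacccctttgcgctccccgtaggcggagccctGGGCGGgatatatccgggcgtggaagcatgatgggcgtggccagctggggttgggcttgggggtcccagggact

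Stx3, used for granule-to-granule and slower fusion, was open in every library, and its levels of 76.1 and 66.7 in the delta libraries lay above the 58.7 to 65 of the others (exact permutation test, p = 0.0857). Every delta library lay above every other library for 6 members (Stx1a, Stx3, Syt5, Syt7, Syt17 and Rab3c, 10.5%) and 3.97% of the genes tested, and below every other for 3 (Syt4, Cadps and Cplx1) and 2.67%. Stx4a, which with Stx1a acts in insulin granule fusion, had a TSS peak at its annotated 5' end in alpha 2 only, a start shared with a neighbouring gene. At its protein-coding starts 17.5 and 17.7 kb downstream, all 7 libraries had a peak and 6 of them a strict one, with a -log10 p from 3.70 in beta 1 to 17.5 in alpha 2.

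The VAMPs sit on the granule. Vamp1, Vamp3, Vamp4 and Vamp8 had a TSS peak in all 7 libraries, whereas Vamp2, the VAMP held to drive insulin and glucagon granule fusion, did not have a strict TSS peak in any. Vamp2 levels were 1.3 and 5.3 in alpha, 15.3, 0 and 0 in beta, and 0 and 7.4 in delta libraries, which overlap throughout. These weak calls had a -log10 q of 0.08 to 1.93, and a start without a call has no detection limit that the lists give. Vamp8, which serves secretion in exocrine tissue and regulates beta cell granules, was lower in alpha, at 30.3 and 48.5, than in beta, at 61.7, 55.3 and 70.9, and delta, at 58.5 and 66.1 (exact permutation test, p = 0.0952). Alpha lay below all others for 3 members, Vamp8, Cadps2 and Rims1, and for 3.62% of the genes tested.

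All 5 syntaxin-binding proteins had a strict TSS peak in all 7 libraries. Stxbp2, a Munc18-type chaperone of syntaxin, was high in every library: 85.9 and 92.2 in alpha, 96.2, 79.7 and 85.3 in beta, and 89.4 and 89.0 in delta libraries. The cell type means of 89.0 ± 4.45 (SD, n = 2), 87.1 ± 8.42 (SD, n = 3) and 89.2 ± 0.239 (SD, n = 2) differed by less than the spread within the alpha and within the beta libraries (exact permutation test, p = 0.867). Stxbp5, the fusion inhibitor tomosyn, was lowest in beta, at 77, 48.4 and 63.3, against 86.7 and 84 in alpha and 85.2 and 86.2 in delta libraries (exact permutation test, p = 0.124). Every beta library lay below every other for 2 members, Stx1a and Stxbp5, or 3.51%, and for 5.96% of the genes tested, so such a fall was no more frequent among the members. Beta 2 and beta 3 were the lowest, so the order for Stxbp5 did not rest on beta 1. The beta 2 summit lay at -142 bases from the start, against -1062 to -1038 in the other libraries, so its level came from another peak. The window also holds the start of a lincRNA gene.

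The synaptotagmins carry the calcium trigger. Of the 8 that bind calcium, 4 had a TSS peak in all 7 libraries and Syt1, the fast sensor of neurons, stood highest in the alpha and delta libraries. Its level was 94.0 and 93.8 in alpha, 71.5, 80.3 and 78.2 in beta, and 85.1 and 79.0 in delta libraries. Alpha lay above both other groups, and beta and delta overlapped (exact permutation test, p = 0.0381, adjusted p = 0.747). The alpha and beta libraries of lane 6 were apart as well, at 93.8 to 94.0 against 71.5 in beta 1. The beta 3 summit lay 691 bases upstream of the start, against 29 to 72 bases in the other libraries. Its level thus came from another peak, with a -log10 p of 26.2 against 16.5 for beta 3 at the shared start peak. Every alpha library lay above every other for 6 members (Syt1, Syt12, Unc13b, Cadps, Rims4 and Rab3a) and 7.68% of the genes tested. The Syt1 promoter (RefSeq, GRCm38.p6, chr10:109010976-109011225, minus strand) is shown as that of the calcium sensor highest in alpha cells, and it holds 1 GC box and 2 CCAAT boxes.

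Syt1: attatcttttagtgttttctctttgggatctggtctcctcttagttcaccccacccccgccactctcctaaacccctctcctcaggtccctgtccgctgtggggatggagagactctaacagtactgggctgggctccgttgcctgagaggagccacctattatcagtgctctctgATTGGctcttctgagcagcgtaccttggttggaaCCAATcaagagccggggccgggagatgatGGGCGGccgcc

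Syt7, the slow, high-affinity calcium sensor used in insulin and glucagon secretion, had a TSS peak in all 7 libraries and a strict one in 5. Its level was 47.3 and 36.4 in alpha, 41.7, 38.5 and 14.5 in beta, and 58.9 and 51.9 in delta libraries. Delta lay above all others, and the difference did not pass the test (exact permutation test, p = 0.200). Syt9, another sensor reported in beta cells, was open in all 7 at 44.2 to 90.2. Syt10 had weak TSS peaks in both alpha libraries, at 6.8 and 5.3, and in beta 1, at 37.0, none of them strict, and none in delta. Syt6 had a strict TSS peak in alpha 1 and both delta libraries and had no TSS peak in alpha 2, beta 2 or beta 3.

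Among the other synaptotagmins, Syt4, which binds calcium poorly and is known for its rise as beta cells mature, had the clearest ordering. It was open in all 7 libraries with strict peaks, at 73.2, 80.5 and 86.9 in beta, 66.9 and 52.2 in alpha, and 47.5 and 32.4 in delta libraries. Beta lay above alpha and alpha above delta without overlap (exact permutation test, p = 0.0190, adjusted p = 0.747). Within lane 7, beta 2 and beta 3 averaged 83.7 against 39.9 for the delta libraries, and within lane 6 beta 1 lay above both alpha libraries. The beta 1 level came from a -log10 p of 10.1, below the 21.1 and 18.7 of the alpha libraries. By MACS2 fold enrichment beta, at 6.79, 9.79 and 15.2, overlapped alpha, at 9.84 and 8.76, and delta, at 7.66 and 6.19. Ranked by fold enrichment, Syt4 kept an unadjusted p of 0.05 or less in the exact permutation test. Beta lay above all others for 4 members, Syt4, Syt15, Cadps2 and Rims2, or 7.02%, and for 3.24% of the genes tested. Syt15 was weak throughout, at 15.1 to 27.0 in beta and at most 8.5 elsewhere (exact permutation test, p = 0.0571). Its level of 15.3 in beta 1 came from a -log10 p of 2.26, below the 3.93 behind the 8.5 of alpha 2. The Syt15 summits ran from -717 bases from the start in beta 3 to 593 in beta 1, so the libraries did not share 1 peak.

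Syt13, an atypical member linked to insulin secretion, was strict in 6 libraries at 57.3 to 81.8, while beta 2 gave a level of 0.2. Syt17 ran the other way to Syt4, at 28.4 and 24.9 in delta, 16.5 and 9.7 in alpha, and 2.0, 15.1 and 0 in beta libraries (exact permutation test, p = 0.0476, adjusted p = 0.793). Its summits lay upstream of the start in alpha 2 and beta 2 and downstream in the others, so the libraries did not share 1 peak. Syt12, with 6.8 and 20, had a TSS peak in the alpha libraries alone.

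**Figure D3:**
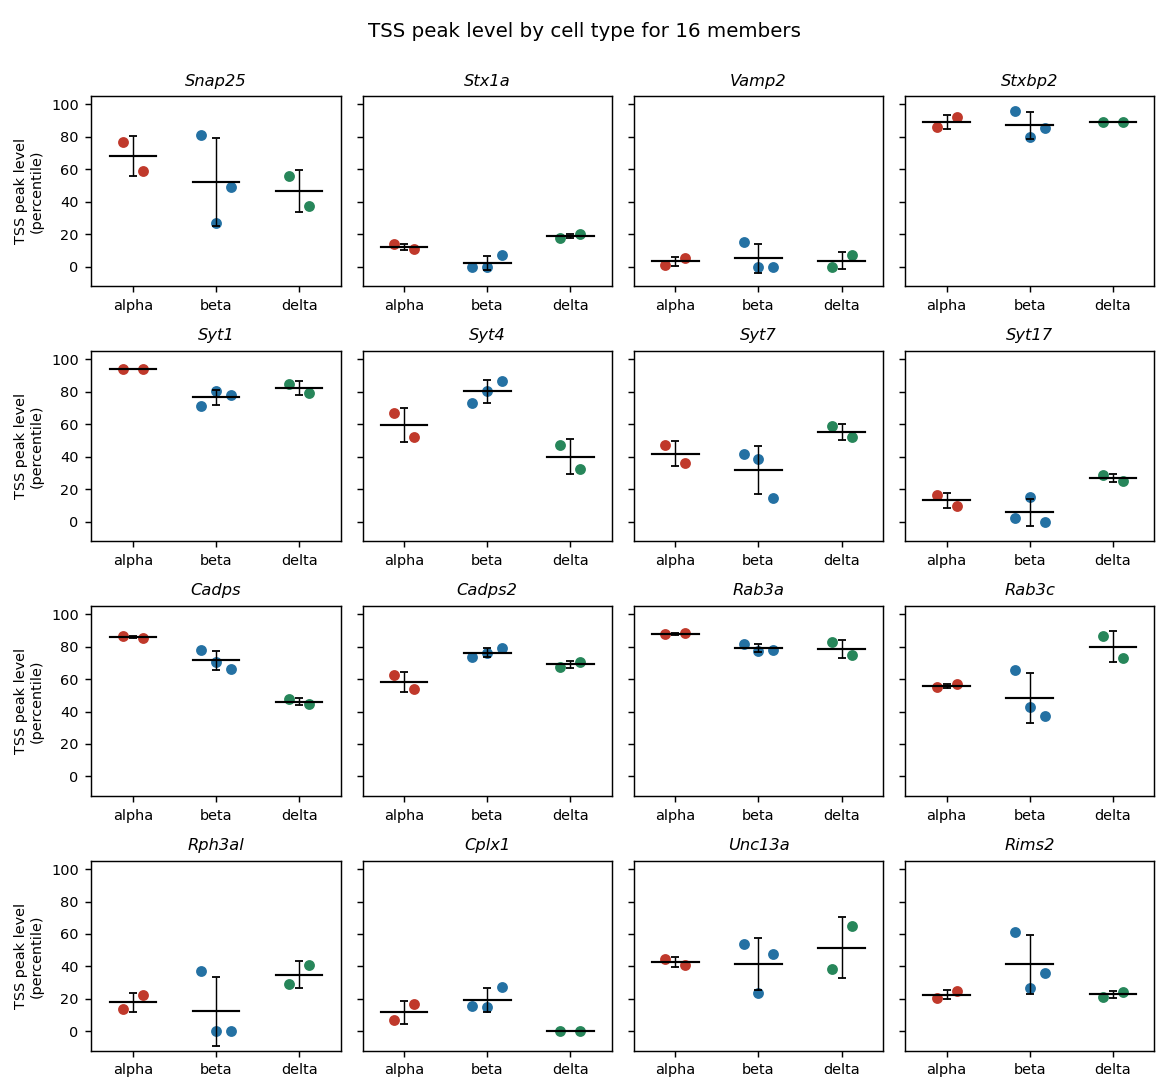
TSS level (percentile, linear axis) of 16 members by cell type; each point is 1 library, the line is the mean and the bar 1 SD (n = 2 alpha, 3 beta, 2 delta). Cadps, Cadps2, Syt4 and Stx1a separate all 3 cell types, Stxbp2 and Rab3a stay near the top in all, and Vamp2 stays near 0.

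The priming factors gave the most distinct pair. Cadps and Cadps2 encode the CAPS proteins, which ready dense-core granules for fusion, and their starts ranked the cell types in different orders. The Cadps level was 86.6 and 85.6 in alpha, 78.0, 70.3 and 66.2 in beta, and 47.6 and 44.4 in delta libraries, falling from alpha to delta with no overlap (exact permutation test, p = 0.0190, adjusted p = 0.747). The peak summits lay 1002 to 1126 bases downstream of the start in all 7 libraries, so that the values came from 1 site. Within lane 6 beta 1 lay below both alpha libraries, and within lane 7 beta averaged 68.3 against 46.0 in delta. By MACS2 fold enrichment the same peak stood at 12.9 and 13.9 in alpha, 7.65, 8.45 and 9.79 in beta, and 8.26 and 8.11 in delta libraries, where alpha lay above the rest and beta and delta overlapped.

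Cadps2 was highest in beta, at 73.5, 76.0 and 79.3, between in delta, at 67.4 and 70.7, and lowest in alpha, at 62.6 and 53.8. It was the 1 member at the smallest p that the exact permutation test allows (p = 0.00952, adjusted p = 0.735). Beta lay above delta in lane 7, at 77.7 against 69.0, and beta 1 above alpha in lane 6, at 73.5 against 58.2. Alpha and delta share no lane, so their order could not be checked within one. The 73.5 of beta 1 came from a -log10 p of 10.2, below the 19.0 and 19.5 of the alpha libraries. The Cadps2 summits lay upstream of the start in both alpha libraries and delta 1 and downstream in delta 2 and the 3 beta libraries, so the values did not come from 1 site. Ranked by fold enrichment instead, Cadps kept an unadjusted p of 0.05 or less and Cadps2 did not. The promoters of the pair (RefSeq, GRCm38.p6, minus strand, chr14:12823080-12823329 for Cadps and chr6:23839422-23839671 for Cadps2) are shown because the pair differ in base composition: 58.0% G or C with 2 CCAAT boxes and no GC box in Cadps, and 78.0% with 3 GC boxes and no CCAAT in Cadps2.

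Cadps: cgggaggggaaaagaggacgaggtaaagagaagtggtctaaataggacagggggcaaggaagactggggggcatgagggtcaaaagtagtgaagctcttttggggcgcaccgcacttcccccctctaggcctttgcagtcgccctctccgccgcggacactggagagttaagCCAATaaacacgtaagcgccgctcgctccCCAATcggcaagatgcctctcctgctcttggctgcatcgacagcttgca
Cadps2: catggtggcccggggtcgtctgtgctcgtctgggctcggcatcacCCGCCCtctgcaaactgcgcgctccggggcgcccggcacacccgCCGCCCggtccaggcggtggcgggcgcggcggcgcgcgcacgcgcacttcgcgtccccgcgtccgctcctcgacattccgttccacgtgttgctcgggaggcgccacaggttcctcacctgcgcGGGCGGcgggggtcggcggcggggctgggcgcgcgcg

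Unc13a and Unc13b, the Munc13 primers of the islet, had strict TSS peaks in all 7 libraries. Unc13a stood at 44.8 and 40.7 in alpha, 53.6, 23.4 and 47.9 in beta, and 38.1 and 64.7 in delta libraries, which overlap (exact permutation test, p = 0.762). Unc13c, a form of cerebellar neurons, had 1 weak TSS peak, in alpha 1. Unc13d, which primes granules of blood cells, had no TSS peak in any library.

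RIM proteins anchor granules to the release site. Rims1, Rims2 and Rims3 had strict TSS peaks in all 7 libraries. Rims2, the RIM that insulin secretion depends on, stood at 20.6 and 24.6 in alpha, 61.5, 26.7 and 35.7 in beta, and 21.4 and 24.4 in delta libraries, with beta 1 far from the other beta libraries (exact permutation test, p = 0.124). The 61.5 of beta 1 came from a -log10 p of 7.03, below the 8.36 behind the 24.6 of alpha 2. The Rims2 summits lay at 55, -254 and -228 bases from the start in beta libraries. They lay at -594 and -671 in alpha and -786 and 897 in delta libraries, so the levels did not come from 1 peak. Rims4 had a TSS peak in the alpha libraries alone, at 13.7 and 5.3, with summits on opposite sides of the start.

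Complexins, which clamp and then promote fusion, were the 1 role group in which none of the members, here 4, had a TSS peak in all 7 libraries. Cplx1 had one in both alpha libraries, at 6.8 and 16.7, and in the 3 beta libraries, at 15.3, 15.1 and 27.6, and none in delta (exact permutation test, p = 0.0857). Of these 5 peaks 2 were strict. Cplx2 was at 15.6 and 16.8 in alpha, 0, 7.7 and 35.1 in beta, and 25.8 and 27.5 in delta libraries (exact permutation test, p = 0.571). RefSeq places the start of Cplx2 at -68793 bases from the GENCODE start, upstream of the window and the locus. The levels thus do not cover that RefSeq start. Cplx3 had a single weak peak and Cplx4 none, both genes being known from retina.

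Counted by presence, few members told the cell types apart. Syt12 and Rims4 had a TSS peak in all alpha and no beta libraries, 3.51% of the members against 1.29% of all genes, and no member the reverse, against 0.214%. Syt10, Syt12, Rims4 and Cplx1 had one in all alpha and no delta libraries, 7.02% against 1.21%, and no member the reverse, against 0.542%. Between beta and delta, Cplx1 was the 1 member with all beta and no delta peaks, against 0.260% of all genes, and no member had all delta and no beta peaks, against 0.807%. Among these peaks Syt10 had no strict one, Syt12 and Rims4 had 1 each and Cplx1 had 2, and with strict peaks none of these 4 members was called.

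With strict peaks other members took their place. Stx1a, Syt17 and Rph3al had a strict TSS peak in both alpha libraries and in no beta library, 5.26% against 4.20% of all genes. These 3 and Syt6 had one in both delta libraries and in no beta library, 7.02% against 2.95%. Without beta 1 the deposited lists gave 7 members with TSS peaks in all alpha and no beta libraries, Rph3al among them, against 3.87% of all genes.

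The Rab GTPases and their effectors tether granules. Rab3a, which cycles on and off secretory granules, was strict in all 7 libraries at 87.6 and 88.5 in alpha, 81.9, 77.6 and 77.8 in beta, and 82.7 and 74.6 in delta libraries. Alpha lay above the rest, and the difference did not pass the test (exact permutation test, p = 0.152). The Rab3a promoter (RefSeq, GRCm38.p6, chr8:70754453-70754702, plus strand), shown as a start open in every library, carries 2 GC boxes and 2 CCAAT boxes, and every summit lay just upstream of the annotated start.

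Rab3a: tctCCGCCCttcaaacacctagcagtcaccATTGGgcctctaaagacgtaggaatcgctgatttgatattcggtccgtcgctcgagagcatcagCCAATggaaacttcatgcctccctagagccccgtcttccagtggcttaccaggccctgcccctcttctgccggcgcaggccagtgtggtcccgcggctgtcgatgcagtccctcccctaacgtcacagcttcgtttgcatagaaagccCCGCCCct

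Rab3c was highest in delta, at 86.7 and 73.3, against 55.0 and 56.8 in alpha and 65.9, 42.7 and 37.0 in beta libraries (exact permutation test, p = 0.114). Rab27a, the GTPase whose loss in mice impairs insulin granule exocytosis, was at 23.4 and 19.1 in alpha, 44.1, 0 and 35.6 in beta, and 16.3 and 25.9 in delta libraries, with no order between cell types (exact permutation test, p = 0.905). Rab27b had a TSS peak in 6 libraries at 15.3 to 35.9, but its internal protein-coding start 88.0 kb downstream was strict in all 7, with a -log10 p from 11.9 in beta 2 to 88.5 in alpha 2.

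Rph3al encodes an effector of Rab3 and Rab27 that endocrine cells need for regulated secretion. Its TSS level was 13.7 and 22.1 in alpha, 37.0, 0 and 0 in beta, and 29.2 and 40.8 in delta libraries (exact permutation test, p = 0.362). The beta 1 value came from a peak with a -log10 p of 3.70 that was not strict. Over the gene body plus 20 kb, strict peaks numbered 3 and 3 in alpha, 0, 0 and 1 in beta, and 8 and 4 in delta libraries, and the 1 beta peak lay outside the gene body. A strict peak in the gene body in all alpha and delta libraries and no beta library, a pattern looked for after this locus was seen, was found for 2 members, Rph3al and Stx1a, or 3.51%, and for 2.06% of all genes. An intronic region 43.2 kb downstream of the start reached a -log10 p of 5.84 and 9.45 in alpha, 3.70 in beta 1 alone of the beta libraries, and 13.9 and 10.1 in delta.

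RefSeq places the start of Rph3al 12.5 kb inside the GENCODE gene, and there both delta libraries had a strict peak, with a -log10 p of 6.12 and 4.80, against weaker calls of 3.40 in alpha 2 and 4.21 in beta 3. The 250 bases upstream of that start (GRCm38.p6, chr11:75925892-75926141, minus strand) are shown because the merged region that holds both delta peaks (chr11:75925785-75926136) overlaps them.

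Rph3al: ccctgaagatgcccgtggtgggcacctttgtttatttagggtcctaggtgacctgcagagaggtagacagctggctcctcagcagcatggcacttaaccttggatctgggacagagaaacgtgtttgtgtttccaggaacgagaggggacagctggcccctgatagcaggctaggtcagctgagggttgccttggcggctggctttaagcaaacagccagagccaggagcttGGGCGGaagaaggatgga

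Rph3a, the related rabphilin of neurons, had no TSS peak in any library, and with Unc13d and Cplx4 made up the 3 members without one. With peaks at any annotated transcript start counted, none of the 57 was without a peak in all libraries, and 36 had one in all 7.

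RefSeq promoter sequences (250 bases before to 50 after the start, GRCm38.p6) were matched for 43 of the 57 members. Their median G and C content was 62.3%, against 57% over 16522 protein-coding promoters and 62.3% over those with strict TSS peaks in all 7 libraries. GGGCGG was found on either strand in 69.8% of the members, 48.0% of all promoters and 71.1% of the promoters strict in all 7. CCAAT was found in 30.2% and 38.7%, TATAAA in 4.65% and 12.9%, and the cyclic AMP element TGACGTCA in 2.33% and 2.43% of members and of all promoters. Among promoters strict in all 7 libraries, CCAAT was found in 42.9% of the 21 members and 44.7% of all.

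Starts included, the 57 loci held 586 merged regions called in at least 2 libraries. The regions were made by joining peaks that overlap by at least 1 base. Of these, 107 (18.3%) were called in all 7 libraries, against 13.3% of all 133698 such regions of the genome, and 41 of the 107 lay more than 1 kb from any annotated start. Regions in both alpha libraries and no other numbered 13 (2.22%, against 2.42% of all regions), those in all beta libraries and no other 2 (0.341%, against 0.592%), and those in both delta libraries and no other 18 (3.07%, against 2.06%). With strict peaks the counts were 13 for alpha (4.92%, against 5.38%), 1 for beta (0.379%, against 0.445%) and 10 for delta (3.79%, against 4.68%) of 264 regions. Only the share of delta regions in the full lists lay above that of all regions, and with strict peaks it lay below.

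**Figure D4:**
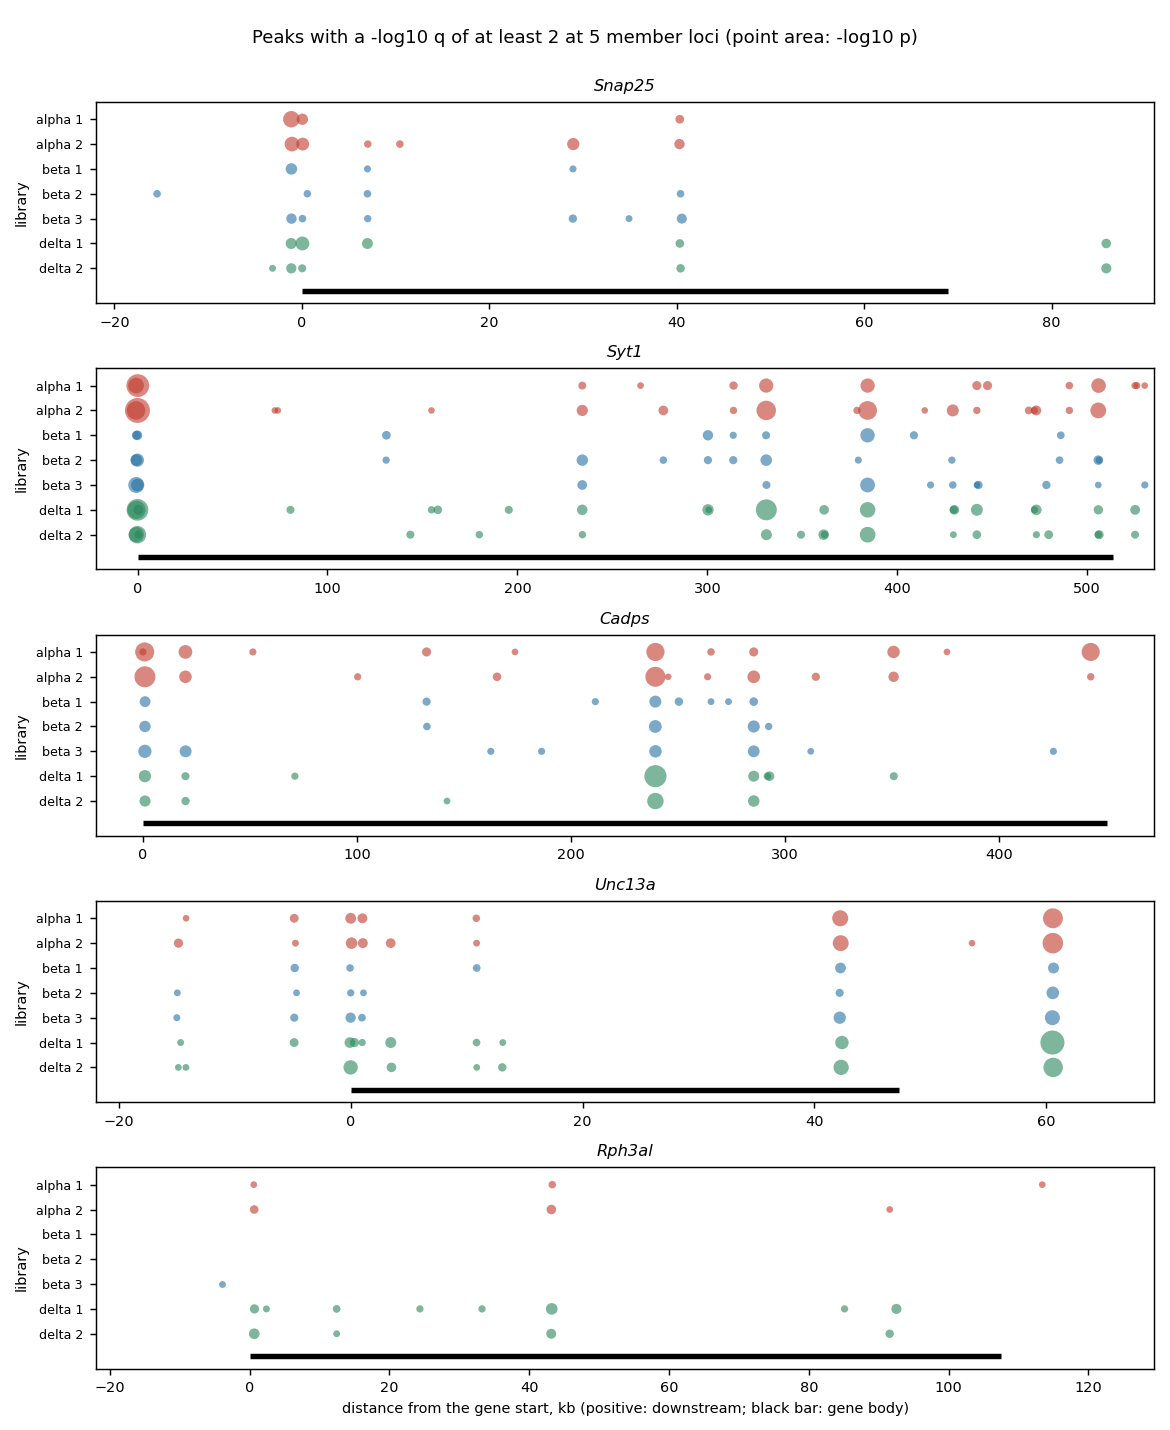
Strict peaks at 5 member loci by distance from the gene start in kb (linear axis, downstream positive), 1 row per library coloured by cell type; point area is proportional to -log10 p and the black bar is the gene body. Peaks at 239 kb in Cadps recur in every library, the peaks at 361 kb in Syt1 and 13.1 kb in Unc13a are seen in delta rows only, and the gene body of Rph3al is empty in the beta rows.

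The strongest region shared by all 7 libraries away from starts lay in an intron of Cadps, 239 kb downstream of its start (chr14:12583378-12583926). Its -log10 p was 33.9 and 40.9 in alpha, 14.8, 16.8 and 15.9 in beta, and 50.2 and 27.7 in delta libraries. These values were lowest in the beta libraries, without overlap, but a -log10 p is not ranked within its library as the TSS level is. The share of all regions with this order was not counted. Other such regions lay in an intron of Syt9, 74.2 kb in, upstream of Syt5 in an intron of a neighbouring gene, and in an exon of Unc13a, 42.3 kb in. A second shared Cadps region, 285 kb in, held 10 copies of TTAGGG, the telomere repeat, on either strand, and short reads are hard to place in such repeats.

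The delta regions were led by an intron of Syt1, 361 kb downstream of the start (chr10:108649159-108649913), with a -log10 p of 9.45 and 11.4 in delta 1 and delta 2 and no peak in the other 5 libraries. An alpha region lay in the same gene, 491 kb in (chr10:108520223-108520628), at 5.84 and 5.63 in the alpha libraries and nowhere else. Syt1 thus held an intronic region of each kind, both strict, under a start that was open in all libraries. Both are shown as 151 bases of the plus strand (GRCm38) centred on the highest summit, with the 21 bases around that summit in capitals, as are the regions that follow.

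Syt1 delta region, chr10:108649707-108649857: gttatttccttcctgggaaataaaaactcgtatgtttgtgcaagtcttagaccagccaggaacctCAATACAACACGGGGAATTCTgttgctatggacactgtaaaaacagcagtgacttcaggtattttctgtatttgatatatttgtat
Syt1 alpha region, chr10:108520352-108520502: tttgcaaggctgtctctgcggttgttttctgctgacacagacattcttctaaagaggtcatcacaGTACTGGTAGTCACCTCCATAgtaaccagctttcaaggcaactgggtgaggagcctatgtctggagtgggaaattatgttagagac
Cadps shared region, chr14:12583575-12583725: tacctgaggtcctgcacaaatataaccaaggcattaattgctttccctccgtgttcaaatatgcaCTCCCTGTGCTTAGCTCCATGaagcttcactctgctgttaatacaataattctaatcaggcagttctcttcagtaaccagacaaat

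Delta regions also lay in an intron of Syt7, 5.11 kb in, with a -log10 p of 4.81 and 5.89, upstream of Syt4, with 4.24 and 7.26, and in an intron of Cadps2, 376 kb in, with 4.75 and 4.67. In Unc13a a delta region (chr8:71658527-71658816), with 4.75 and 7.21 and no peak elsewhere, overlapped a coding exon and lay 32 bases from the annotated start of a shorter protein-coding transcript, 13.3 kb inside the gene. Downstream of Snap25, 85.8 kb from its start and past the end of the gene, a region was strict in delta alone, at 9.34 and 10.5, with weaker calls of 3.26 in alpha 2, 2.26 in beta 1 and 2.69 in beta 3. The Unc13a, Syt7 and Snap25 regions are shown as 3 sites that were strict in both delta libraries and in no other.

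Unc13a delta region, chr8:71658620-71658770: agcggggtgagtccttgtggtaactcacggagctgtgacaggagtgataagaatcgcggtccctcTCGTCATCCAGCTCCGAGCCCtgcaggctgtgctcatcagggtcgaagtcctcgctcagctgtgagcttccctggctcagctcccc
Syt7 delta region, chr19:10394119-10394269: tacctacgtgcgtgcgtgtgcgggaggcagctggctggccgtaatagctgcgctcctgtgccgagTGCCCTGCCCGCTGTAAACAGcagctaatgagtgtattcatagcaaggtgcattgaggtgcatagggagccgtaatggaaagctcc
Snap25 delta region, chr2:136799239-136799389: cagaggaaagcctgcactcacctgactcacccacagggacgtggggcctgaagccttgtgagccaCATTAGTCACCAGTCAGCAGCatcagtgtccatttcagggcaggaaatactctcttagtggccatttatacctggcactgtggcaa

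Other alpha regions lay in introns of Rab3a, 0.406 kb in, at 3.77 and 5.0, of Syt16, 87.0 and 89.6 kb in, and of Cadps, 314 kb in, at 3.40 and 6.91. Both beta regions were intronic, in Stxbp6, 209 kb in, at 2.26, 4.25 and 6.61, and in Cadps, 250 kb in, at 7.39, 4.42 and 2.69, and each was strict in 1 library. Cadps also held a delta region in an intron, 20.6 kb in, at 4.24 and 4.09, not strict in either library. It thus had intronic regions of each cell type and of all 3, and that of beta cells is shown.

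Cadps beta region, chr14:12572579-12572729: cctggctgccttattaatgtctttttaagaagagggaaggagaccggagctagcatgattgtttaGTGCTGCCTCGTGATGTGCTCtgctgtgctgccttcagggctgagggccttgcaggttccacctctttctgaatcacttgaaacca

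Of every 1000 listed peaks, 4.14 and 4.53 lay at the member loci in alpha, 3.31, 3.75 and 4.45 in beta and 4.0 and 5.19 in delta libraries, which overlap. Among strict peaks they made up 4.76 and 5.36, 4.90, 4.62 and 4.91, and 5.74 and 5.61, so that delta lay above the others there. Over the Syt1 locus of 553 kb the counts of strict peaks were 14 and 19 in alpha, 9, 13 and 12 in beta, and 20 and 18 in delta libraries.

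The 31 other genes of the pathway, which were not members, were open to a like extent. TSS peaks in all 7 libraries were found for 17 (54.8%, against 41.5% of all genes) and strict ones for 14 (45.2%, against 31.1%). No library had one for 3, Sytl3, Sytl5 and Mlph (9.68%, against 17.3%). At an unadjusted p of 0.05 or less, 4 of them (12.9%) were called, against 6.01% of the genes tested, and none passed adjustment. Sytl2, a Rab27 effector, fell from alpha, at 86.1 and 79.2, over beta, at 74.8 to 77.5, to delta, at 70.4 and 70.5 (exact permutation test, p = 0.00952, adjusted p = 0.735). Erc1, a release site scaffold, ran in the opposite order, at 58.6 and 73.9 in alpha, 76.6 to 78.3 in beta, and 81.1 and 86 in delta libraries (exact permutation test, p = 0.00952, adjusted p = 0.735). Exoc2 was highest in alpha and Exoc3 in delta, both being subunits of the exocyst, which tethers granules. Doc2a, a calcium-binding partner of Munc13, was the 1 gene of the 31 (3.23%, against 1.21% of all genes) with TSS peaks in all alpha and no delta libraries, and no strict one.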

How the data were processed

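Peak lists of 7 ATAC-Seq libraries were used as deposited, 1 per library, grouped by the labels into alpha, beta and delta cells. Per the submitters' processing notes and the study's methods, the authors ran FastQC, trimmed reads with Trimmomatic, aligned them to mm10 without mitochondrial DNA with Bowtie2, marked duplicates with Picard, removed blacklisted regions and called peaks in each library on its own with MACS2; read shifting for the transposase and tool versions are not given in the sources used here. The authors' lists give, per peak, a score, a fold enrichment over background, a -log10 p, a -log10 q and a summit position. The deposited score, 10 times the -log10 p cut to a whole number, was not used. No reads outside peaks are held in the lists, so depth per library is unknown from them, and a missing peak has no limit of detection. The libraries are biological replicates, and mice were pooled by sex.

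Repeated intervals with several summits were counted once, with the strongest values. Starts, genes and transcripts were taken from GENCODE vM21, whose coordinates are those of mm10. The TSS was the annotated 5' end of a gene, with 1000 bases on either side. TSS levels are percentiles by -log10 p and were tested with an exact permutation test over all 18145 protein-coding genes with a TSS peak in any library, with Benjamini-Hochberg adjustment. Regions were peaks of all lists joined at an overlap of 1 base. Named members were 14 with an established part in islet secretion, those with TSS peaks in all libraries of 1 cell type and none of another, those with none, and the 10 of lowest p. Named regions were the 5 of each kind with the highest lowest percentile. The members and lists were chosen with earlier results of these data known. Other settings were strict peaks (-log10 q of 2 or more), the 50000 strongest peaks per list, a TSS window of 3000 bases, any transcript start, loci with 5 or 50 kb of flank in place of 20, peaks cut to 150 bases on either side of the summit, fold enrichment, limma, a replicate block and leaving out 1 library at a time. P-values measure the spread between these libraries. Replicate numbers are shared between cell types, but deviations of same-numbered libraries from their group means correlated at -0.0220 to 0.0456, so they were not taken as pairs. In the paper beta 1 and beta 2 differ in sex from the alpha and delta libraries of the same number. The paper states that the cell types came from the same animals, but not which libraries share a pool. That pairing was not taken into account. Python 3.11.15, numpy 2.4.6, pandas 2.3.3, matplotlib 3.10.9, pysam 0.24.0, R 4.3.3 and limma 3.58.1 were used. The steps were tested on simulated lists.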

Additional observations from a re-analysis of the deposited data

How the results depend on the processing

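The counts of members with a TSS peak in all 7 libraries stayed within 1.5 times of 33 under every alternative run, from 26 to 36. Members without a TSS peak in any library numbered 3, 9 with strict peaks, 7 with the 50000 strongest peaks per list, and 0 with a 3 kb window or any transcript start. For alpha and beta, members with peaks in all libraries of one and none of the other numbered 2, but 1 with the 50000 strongest peaks and 1 with a 3 kb window. For alpha and delta they numbered 4, and 0 with strict peaks and 0 with the 50000 strongest. For beta and delta they numbered 1, but 4 with strict peaks, 2 with a 3 kb window and 2 with any transcript start. These counts of members were not set against the share of all genes, except where that share is given above. Members with an unadjusted p of 0.05 or less numbered 6, and 10 with limma. With a replicate block, which reassigns cell types within each replicate number, the test gave 0, because the smallest p of its 36 assignments is 0.0556. In this blocked test 3 members reached that value, and 5.89% of the genes tested did. Replicate numbers do not mark shared animals, so this was not a paired analysis. Without any one of the beta libraries the design cannot reach a p of 0.05, so no member could be called there. Regions called in all alpha libraries and no other numbered 13, and 21 with 50 kb of flank and 8 with the 50000 strongest peaks. Those of beta numbered 2, and 1 with strict peaks, and those of delta 18, and 10 with strict peaks and 11 with the 50000 strongest.

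With each library left out in turn, members with a TSS peak in all libraries numbered 33 to 36 and in none 3 to 5. Members with peaks in all of one and none of the other numbered 2 to 7 for alpha and beta, with 7 without beta 1 and 4 without either alpha library, 4 to 7 for alpha and delta, with 7 without alpha 2, and 1 to 3 for beta and delta, with 3 without beta 1 and 2 without beta 3 or delta 2. The level test called 0 to 6. Of these counts with a library left out, only the 7 for alpha and beta without beta 1 was set against all genes, above. Regions of alpha numbered 14 to 229, of beta 2 to 31 and of delta 20 to 253. The high ends for alpha and delta came where 1 of the 2 libraries remained and that for beta without beta 2, and without beta 1 the counts were 24, 5 and 24. Peaks at the member loci per 1000 peaks moved with the flank and the threshold, as their construction gives. The delta mean lay above the beta mean in each setting run with all libraries, though single libraries of the 2 groups overlapped in the full lists.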
